A study of Rattus norvegicus with 4 samples.

Results

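Ech1, Crot, Abcd3, Phyh and Hsd17b4 encode proteins of peroxisomal fatty acid oxidation, and their liver transcripts were measured on 4 two-colour cDNA arrays, on which RNA from a pair of sources competes for the same spotted clones. A gene was taken where any symbol listed for a spot in the probe annotation was its own, which gave 5 genes on 9 spots, out of 3102 genes named by a single symbol. All 36 values of these spots were measured, and all 5 genes passed the filter that asked for a value on each of the 4 arrays. Channel 1 of each array held total liver RNA of 1 female Fischer rat given ciprofibrate at 50 mg per kg of body weight each day, for 60 days. Channel 2 held a pool of total liver RNA from 5 control rats, whose sex, strain and vehicle the labels do not state. No genotype or age is given for either group. Treated rats carry no numbers in the labels. Each array was counted as 1 animal, and the p-values measure the spread between these 4 hybridisations. Control rats were never hybridised singly, and their own spread is not part of any test.

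Peroxisomes shorten very long, branched and dicarboxylic acyl chains that mitochondria handle poorly, and pass the shortened chains on for complete oxidation. Chains enter through half-transporters of the peroxisomal membrane, are cut by an oxidase, a multifunctional hydratase and dehydrogenase and a thiolase, and leave as carnitine esters. Branched phytanic acid must first lose a carbon by alpha-oxidation. Fibrates such as ciprofibrate activate the nuclear receptor PPARα, which in rodent liver is known for raising transcripts of this pathway and for peroxisome proliferation.

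The values are ratios, and the sign has to be read before any direction is given. The treated liver is channel 1 in the labels and no dyes are named, so a positive log2 ratio (channel 1 over channel 2) was taken to mean likely more transcript after treatment. This reading was set against 38 genes that textbooks list as raised by peroxisome proliferators, none of them among the 5. Of the 15 with a value on all 4 arrays under 1 symbol, 11 had a positive mean and 4 a negative one. Counting the 3 clones listed under several symbols, or under 1 symbol entered more than once, it was 14 of 18. Over all 4641 rows with a value on every array, 2270 means were positive and 2371 negative. Called positive were Acaa2 (0.71 ± 0.08, SD, n = 4), Me1 (0.43 ± 0.08), Acsl1 (0.41 ± 0.22) and Eci1 (0.39 ± 0.25), and Acot2 was called negative (-0.39 ± 0.09). Of all rows, 13.7% were positive and 15.3% negative calls. Eci1 lost its call without any 1 of the arrays (0.28 to 0.49, limma adjusted p from 0.0514 to 0.154), and Me1 lost it without replicate 1, 3 or 4 (0.45, 0.42 and 0.45). Uncalled with a positive mean were Decr1 (0.41 ± 0.40), Acadm (0.28 ± 0.15), Hadha (0.24 ± 0.29), Eci2 (0.14 ± 0.13), Cpt2 (0.05 ± 0.14), Cpt1b (0.05 ± 0.50) and Hadhb (0.01 ± 0.10). Uncalled with a negative mean were Slc27a2 (-0.27 ± 0.21), Cpt1a (-0.22 ± 0.19) and Angptl4 (-0.09 ± 0.40). After correction for place on the slide, described below, 10 of the 15 had a positive mean, and of the 5 calls those of Acaa2 (0.42 ± 0.08) and Me1 (0.39 ± 0.11) held. Calls ended for Acsl1 (0.08, limma adjusted p = 0.501), Eci1 (0.44, adjusted p = 0.0563) and Acot2 (-0.17, adjusted p = 0.131), and Cpt1a became a negative call (-0.34 ± 0.09). No test of the sign was made, and every direction below rests on this reading. The panel itself was chosen with earlier results of these arrays known.

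The 5 genes did not share a direction. Ech1 and Crot had positive ratios, likely higher in the treated livers, at means of 0.67 each, a 1.59-fold difference. Phyh and Abcd3 had negative ratios, likely lower, at means of -1.12 (2.18-fold) and -0.53 (1.44-fold). Hsd17b4 had a mean of -0.36 and did not pass the test. A gene is called here where limma's test of its mean log2 ratio against 0 gave a Benjamini-Hochberg adjusted p under 0.05 over all 4641 rows of the table with a value on every array. By that rule 2 of the 5 were positive calls, against 13.7% of all rows, and 2 were negative calls, against 15.3%. All 4 calls ended when the variance was not moderated across rows (adjusted p from 0.0618 to 0.0959), a setting that left 6 positive and 4 negative calls in the whole table. The 5 genes were chosen with earlier results of these arrays known, so their counts are a description and not a sign of enrichment.

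**Figure D1:**
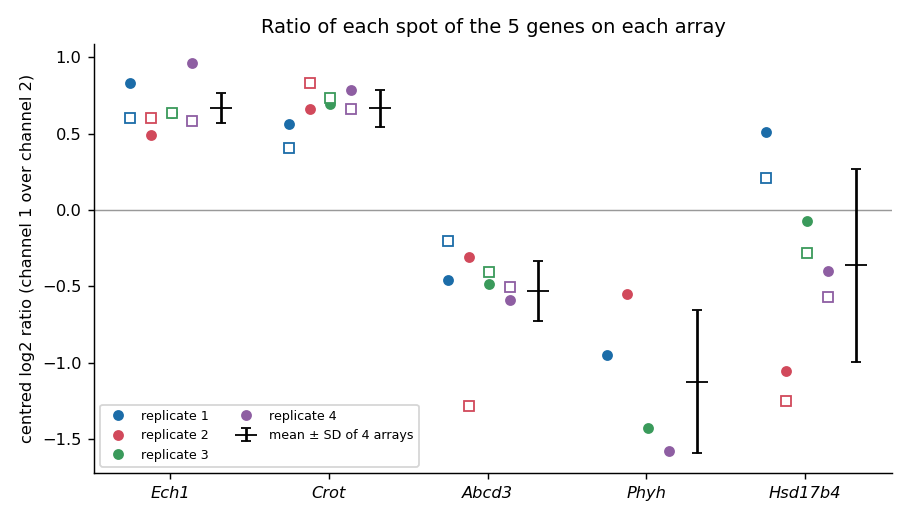
Centred log2 ratio (channel 1 over channel 2) of every spot of the 5 genes on the 4 arrays, coloured by replicate, with filled circles for the first and open squares for the second spot of a gene. Black bars give the mean ± SD of the 4 arrays after averaging spots. All spots of Ech1 and Crot lie above 0, all spots of Abcd3 and Phyh below 0, and those of Hsd17b4 on both sides.

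Place on the slide went with these directions, and it is given before the single genes. In the layout inferred here, 8 square blocks with 31 spots to a side were taken to be set 2 abreast. The spots of Ech1 and Crot then lay in blocks 3 and 1, in the left column. Those of Hsd17b4 and Phyh (block 4) and Abcd3 (block 8) lay in the right column. The median log2 ratio of left-column spots exceeded that of right-column spots by 0.20, 0.12, 0.36 and 0.53 on replicates 1 to 4. Of rows lying wholly in the left column, 25.8% were positive and 8.33% negative calls, and of those in the right column 1.46% were positive and 22.3% negative calls. A smooth surface over the spot positions was therefore subtracted as an alternative, and the 5 genes are given with and without it. After this subtraction 3.06% of all rows were positive and 11.5% negative calls. Among the 5 genes there was then 1 positive call (Ech1) and there were 2 negative calls (Phyh and Abcd3). No gene of the 5 was printed in both columns.

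**Figure D2:**
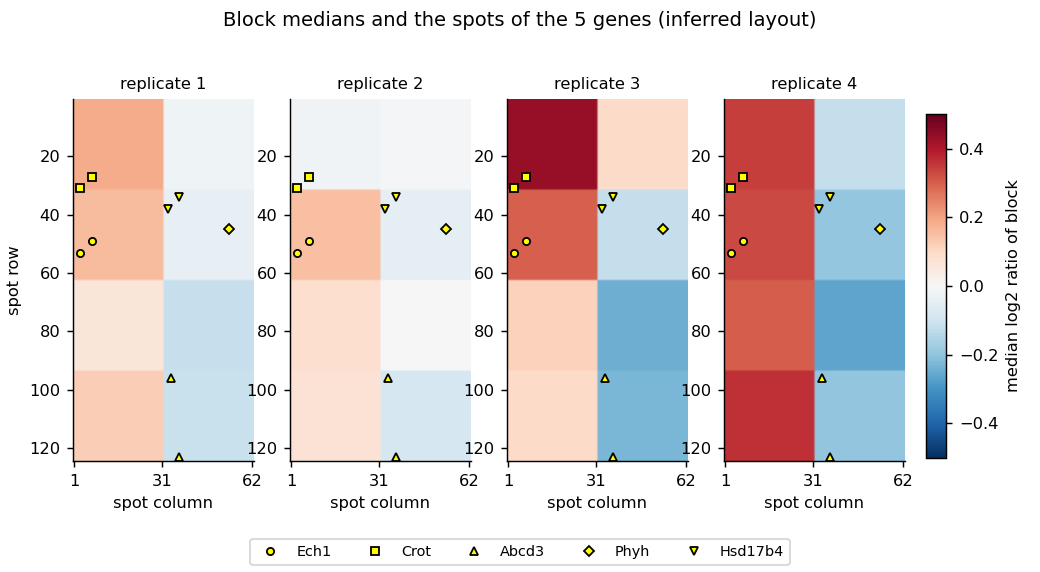
Median log2 ratio of each of the 8 blocks on the 4 arrays (colour), by spot row and spot column in the inferred layout, with the spots of the 5 genes marked. Blocks of the left column, which hold Ech1 and Crot, have higher medians than their right-hand neighbours in each of the 4 block rows on replicates 1, 3 and 4, and in 3 of them on replicate 2.

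Transport into the peroxisome is the role of Abcd3, a half-transporter of the peroxisomal membrane also known as PMP70. Its log2 ratio was -0.33, -0.79, -0.45 and -0.55 on replicates 1 to 4. All 4 arrays were negative, and replicate 2 was the lowest. The mean was -0.53 ± 0.20 (SD, n = 4, limma adjusted p = 0.0139), and 482 of the 4641 rows had a lower mean. Its 2 spots lay far apart in block 8 and differed most on replicate 2, where spot 6792 was at -0.31 and spot 7632 at -1.28. That gap of 0.98 compares with a 95th percentile of 0.48 over the clones with 2 spots on the same array. On the other 3 arrays the spots differed by 0.08 to 0.26. Tested as separate rows, the first spot was at -0.48 ± 0.13 (limma adjusted p = 0.0146) and the second at -0.62 ± 0.47 (adjusted p = 0.0339). Less the surface, the mean was -0.43 ± 0.19 (adjusted p = 0.0345). The call ended with block medians subtracted (-0.35, adjusted p = 0.0607), without replicate 3 (-0.56, adjusted p = 0.0541) and without replicate 4 (-0.52, adjusted p = 0.0544).

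The core of beta-oxidation is represented by Hsd17b4, a multifunctional protein. It hydrates enoyl-CoAs and dehydrogenates the hydroxyacyl-CoAs formed, those of branched chains included. Its log2 ratio was 0.36, -1.15, -0.18 and -0.48 on replicates 1 to 4. Replicate 1 was positive and replicate 2 strongly negative, and the mean of -0.36 ± 0.63 (SD, n = 4) did not pass (limma adjusted p = 0.230). The spread was between arrays rather than between spots. Spots 2951 and 3071 differed by 0.16 to 0.30 on a single array, in the same direction each time, while the SD of their mean over arrays was 0.62. Both spots were positive on replicate 1 (0.51 and 0.21) and below -1 on replicate 2 (-1.05 and -1.25). The median gap between 2 spots of a clone, over 1911 such clones, was 0.08 to 0.09. Without replicate 2 the mean was -0.10 (adjusted p = 0.629) and without replicate 1 it was -0.60 (adjusted p = 0.0898). The surface changed little here, at -0.42 ± 0.60 (adjusted p = 0.201).

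Ech1, a dienoyl-CoA isomerase, is an auxiliary enzyme that moves double bonds of unsaturated chains. Its log2 ratio was 0.72, 0.54, 0.64 and 0.77 on replicates 1 to 4. All arrays were positive, and they lay closer together than for any other of the 5 genes. The mean was 0.67 ± 0.10 (SD, n = 4, limma adjusted p = 0.00529), and 34 of the 4641 rows had a higher one. The spots 2456 and 2576 ranged from 0.49 to 0.96 and from 0.58 to 0.63 over the arrays, so that the second varied less. The call held without each array in turn, at means from 0.63 to 0.71. The surface at its spots lay 0.20 to 0.46 above the median of the array, and with it subtracted the log2 ratio was 0.49, 0.31, 0.22 and 0.24. That mean of 0.31 ± 0.12 passed narrowly (adjusted p = 0.0470), and 181 rows had a higher one. When any 1 array was left out as well, the call ended (means from 0.26 to 0.35, adjusted p from 0.0510 to 0.160).

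Crot, the peroxisomal carnitine octanoyltransferase, makes the carnitine esters in which shortened chains leave the organelle. Its log2 ratio was 0.48, 0.74, 0.71 and 0.72 on replicates 1 to 4. Replicate 1 stood below the other 3. The mean was 0.67 ± 0.12 (SD, n = 4, limma adjusted p = 0.00578), and 36 rows had a higher one. Spots 813 and 933 differed by at most 0.17 on an array. The call held without each array in turn (means from 0.64 to 0.73). The surface at its spots lay 0.12 to 0.49 above the array's median. With it subtracted the log2 ratio was 0.20, 0.59, 0.17 and 0.16, and the mean of 0.28 ± 0.21 did not pass (adjusted p = 0.0895). Replicate 2, the array with the weakest left-right difference, then stood apart from the others. With replicate 2 also left out the mean was 0.18 and passed (adjusted p = 0.0445). With block medians subtracted in place of the surface the mean was 0.45 ± 0.22 and passed (adjusted p = 0.0322).

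Alpha-oxidation begins with Phyh, the hydroxylase of phytanoyl-CoA whose loss causes Refsum disease in humans. Its single spot, 3309, was at -0.95, -0.55, -1.43 and -1.58 on replicates 1 to 4. Every array was negative, the lowest ratios being on replicates 3 and 4 and the weakest on replicate 2, the array on which Abcd3 and Hsd17b4 were lowest. The mean was -1.12 ± 0.47 (SD, n = 4, limma adjusted p = 0.00629), and 91 of the 4641 rows had a lower one. It had the largest mean difference of the 5 genes under each setting tried. The surface at the spot lay 0.09 to 0.37 below the array's median, less than the ratio itself. With it subtracted the values were -0.86, -0.45, -1.18 and -1.29, with a mean of -0.95 ± 0.38 (adjusted p = 0.0141). The call held without each array in turn, and also with block medians subtracted (adjusted p = 0.0127). Less the surface, it ended without replicate 3 (-0.87, adjusted p = 0.0524) and held without each of the other arrays. A single spot gives no check between spots.

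**Figure D3:**
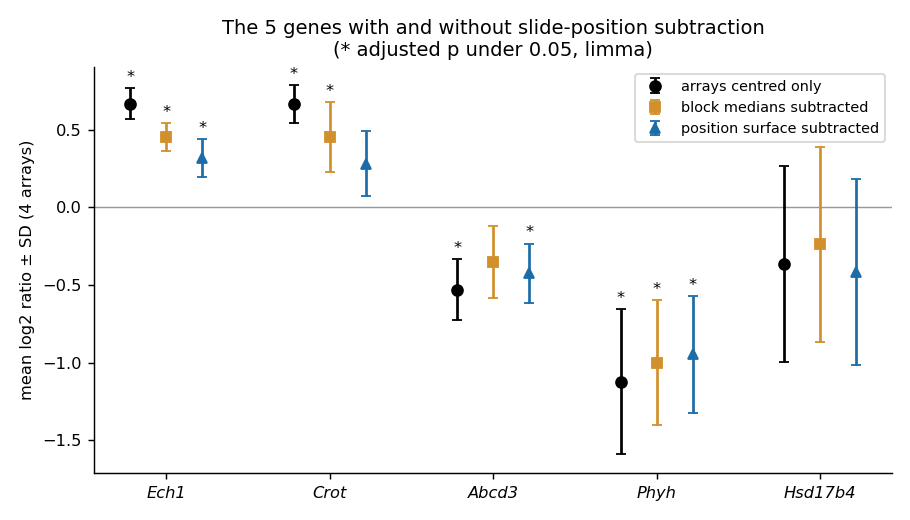
Mean log2 ratio ± SD over the 4 arrays for the 5 genes, with arrays centred only (black circles), with the median of each block subtracted (orange squares) and with the smooth position surface subtracted (blue triangles). Asterisks mark an adjusted p under 0.05 (limma). Ech1 and Crot move from 0.67 to 0.31 and 0.28, and Phyh from -1.12 to -0.95.

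Set against each other within an array, Ech1 and Crot lay above the other 3 genes on every array. Of the 10 pairs, 6 differed in the same direction on all 4 arrays, and these were Ech1 or Crot against each of Abcd3, Phyh and Hsd17b4. Each of these 6 set a left-column gene against a right-column gene, and the remaining pairs lay within the same column. Gene and place on the slide therefore cannot be told apart in these pairs. Ech1 exceeded Phyh by 1.66, 1.09, 2.06 and 2.35 on replicates 1 to 4, and Crot exceeded Phyh by 1.43, 1.29, 2.14 and 2.30. The mean differences were 1.79 ± 0.54 and 1.79 ± 0.50 (log2, SD, n = 4). Ech1 exceeded Abcd3 by 1.20 ± 0.15, with 1.05 on the lowest array. The differences from Hsd17b4 were wider spread, at 1.03 ± 0.58 for Ech1 and 1.03 ± 0.73 for Crot, with 0.36 and 0.13 on replicate 1. Each of the 6 had the smallest p that an exact two-sided sign-flip test of 4 arrays can give, 0.13, or 0.208 adjusted over the 10 pairs, so none could pass. After subtraction of the surface 5 of the 6 kept one direction on all arrays, with Ech1 above Phyh by 1.26 ± 0.34 and Crot above Phyh by 1.23 ± 0.20. The exception was Crot against Hsd17b4, at 0.70 ± 0.77 with -0.11 on replicate 1. Ech1 and Crot differed by 0.00077 ± 0.18 on average, with either the higher on 2 arrays (exact permutation p = 1).

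The other peroxisome genes on the arrays had calls of both signs, at shares near those of all rows. Of 77 genes in a list fixed by role, 28 were spotted under 1 symbol and 23 had values on all 4 arrays. Leaving out the 5 genes above, 18 remained, of which 3 were positive calls (16.7%, against 13.7% of all rows), 2 were negative calls (11.1%, against 15.3%) and 13 were not called. Their median was 0.03, and that of all rows -0.01. Direction again went with the slide: of 8 such genes in the left column 7 had a positive mean, and of 10 in the right column 8 had a negative one. Less the surface, 1 was a positive call and 0 were negative calls by limma's adjusted p, against 3 and 2 at an unadjusted p under 0.05, and the medians were -0.05 and -0.03. The list was not chosen independently of earlier results of these arrays. It also holds Acot2, a mitochondrial thioesterase, which with Gnpat made up the 2 negative calls before subtraction.

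By role, transport and activation held Acsl1, an acyl-CoA synthetase, which was positive at 0.41 ± 0.22 (SD, n = 4) and at 0.08 ± 0.18 less the surface, and Slc27a2, a very-long-chain acyl-CoA synthetase, at -0.27 ± 0.21 (-0.25 less the surface). The call of Acsl1 ended without replicate 1, 3 or 4 (0.39, 0.37 and 0.37). Pxmp4, a peroxisomal membrane protein, was at 0.20 ± 0.14 (limma adjusted p = 0.161) and became a positive call with the surface subtracted, at 0.34 ± 0.03 (adjusted p = 0.0259). Among auxiliary enzymes Eci2, an enoyl-CoA isomerase, was at 0.14 ± 0.13 (0.22 ± 0.06 less the surface, limma adjusted p = 0.0749). Among thioester enzymes Acot2, a mitochondrial acyl-CoA thioesterase, was negative at -0.39 ± 0.09. Its call ended with the surface subtracted (-0.17 ± 0.08, limma adjusted p = 0.131) and without replicate 1, 3 or 4 (-0.42, -0.35 and -0.37). A clone listed for both Acot3, a peroxisomal thioesterase, and Acot1 was at 1.38, 0.66, 1.12 and 0.41 on replicates 1 to 4. Its mean of 0.89 ± 0.44 passed (adjusted p = 0.0104), and it did so in the right column and with the surface subtracted too (0.78 ± 0.43, adjusted p = 0.0315).

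Beside Phyh, the only measured gene of alpha-oxidation and ether lipids was Gnpat, the acyltransferase that starts ether lipid synthesis, and it too was negative. Its log2 ratio was -0.19, -0.48, -0.73 and -0.86, a mean of -0.57 ± 0.29 (SD, n = 4, limma adjusted p = 0.0188). With the surface subtracted it was at -0.38 ± 0.24 (adjusted p = 0.0582). The call also ended without replicate 3 (-0.51) and without replicate 4 (-0.47). Among other oxidases Agxt, which transaminates glyoxylate, was positive at 0.58 ± 0.20 and Hao2, a hydroxyacid oxidase, at 0.43 ± 0.15. Both lie in the left column, and neither passed with the surface subtracted (0.24 ± 0.22 and 0.10 ± 0.20). The call of Hao2 also ended without replicate 3 (0.38) or replicate 4 (0.43). Prdx5, a peroxiredoxin, was at -0.28 ± 0.26 (-0.064 less the surface), Tysnd1, a peroxisomal protease, at 0.27 ± 0.13 (0.24), and neither was called under either setting. The peroxins Pex6 and Pex2, which serve biogenesis, were at 0.26 ± 0.13 and 0.23 ± 0.28 (0.083 and 0.0043 less the surface) and were not called under either setting.

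**Figure D4:**
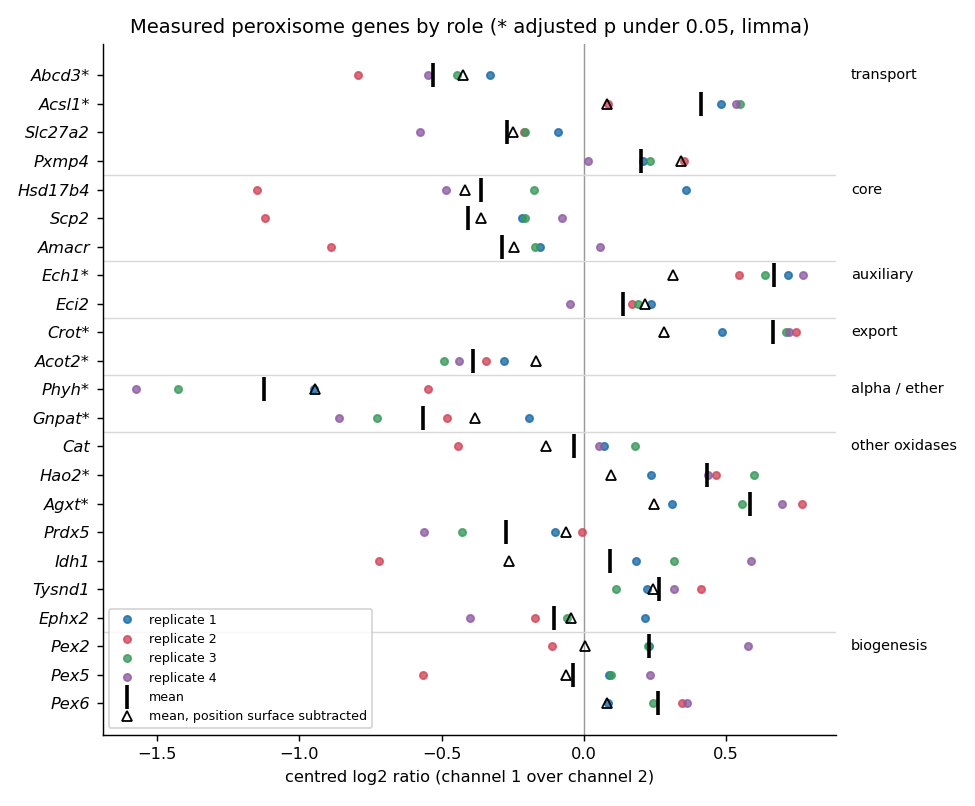
Centred log2 ratio of the 23 genes of the peroxisome list with values on all 4 arrays, grouped by role. Each replicate has one coloured point, with a black bar at the mean and an open triangle at the mean with the position surface subtracted. Asterisks mark an adjusted p under 0.05 (limma) before subtraction. The 3 core genes Hsd17b4, Scp2 and Amacr have their lowest value on replicate 2, and Phyh has its highest there.

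The core enzymes shared the low value on replicate 2. Beside Hsd17b4, Scp2, the sterol carrier protein with a thiolase form, was at -0.22, -1.12, -0.21 and -0.08 on replicates 1 to 4. Amacr, the racemase of branched acyl-CoAs, was at -0.16, -0.89, -0.17 and 0.06. Neither passed (means -0.41 ± 0.48 and -0.29 ± 0.41, SD, n = 4, or -0.36 ± 0.49 and -0.24 ± 0.41 less the surface). The array means of the 3 core genes were -0.0051, -1.05, -0.19 and -0.17. Markers of hepatocytes moved alike: the 5 measured of 10 listed (Alb, Apoa1, Tf, Serpina1 and Fgb) had array means of -0.12, -1.14, -0.45 and -0.34, and their part in the result was not tested. Of these 5, Tf and Fgb were negative calls, against 15.3% of all rows. Less the surface, Tf held at -0.66 ± 0.19 and Fgb did not (-0.38 ± 0.33, limma adjusted p = 0.0893). Of the 18 other genes of the peroxisome list 7 were lowest on replicate 2 (38.9%), as were 32.1% of all rows. Replicate 2 stood apart over the whole table too. Its ratios correlated with the other arrays at r from 0.47 to 0.53, against 0.68 to 0.76 among those. It also had the widest spread over rows (SD 0.54, against 0.38 to 0.51). The low values there are thus not particular to the core genes.

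Other cell types were thinly covered. Of the Kupffer cell and leukocyte markers 2 of 8 were measured (array means from -0.15 to 0.0012), of erythroid markers 2 of 5 (-0.51 to -0.24), of endothelial and stellate markers 5 of 7 (0.055 to 0.20), and of 4 bile duct markers none. Among the endothelial and stellate markers Kdr, Lrat and Des were positive calls (against 13.7% of all rows) and Acta2 a negative one (against 15.3%). Kdr, Lrat and Des all lie in the left column and lost their calls less the surface (limma adjusted p = 0.278, 0.103 and 0.146), while Acta2 held (-1.0 ± 0.27). Hbb, a haemoglobin chain, was a negative call at -0.88 ± 0.24 (SD, n = 4), as was Cd74, an MHC class II chain, at -0.35 ± 0.07 (limma adjusted p = 0.00446 and 0.0285), and both held less the surface (-0.82 ± 0.28 and -0.62 ± 0.13). The other measured erythroid marker, Alas2, had a positive mean (0.11 ± 0.22, or 0.09 ± 0.22 less the surface). So did the other Kupffer cell and leukocyte marker, Lyz2 (0.18 ± 0.19, or 0.25 ± 0.21 less the surface). Neither Alas2 nor Lyz2 was called under either setting. A ratio array holds no level, so the liver label could be checked no further. In bulk RNA, fewer cells of a type and less RNA per cell cannot be told apart. The part of these markers in the ratios of the 5 genes was not tested.

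The rows most like each gene over the 4 arrays, by root mean square difference in log2 ratio, lay mostly in the same column of the slide. Nearest to Ech1 were Aldoa (0.12), Hspe1 (0.13) and Ifrd1 (0.13), and nearest to Crot were Park7 (0.05), Col5a2 (0.05) and Tcp1 (0.05), all 6 in the left column. Nearest to Abcd3 were Gsdmd (0.09), Pnrc1 (0.10) and Ywhaq (0.10), in the right column. Phyh had no close match, with Tpgs1 at 0.17 and Nkd1 at 0.26 in the right column and Zfp532 at 0.29 in the left. Nearest to Hsd17b4 were Ctsl (0.10), Prepl (0.11) and Tspo (0.15), in the right column. Tspo, a cholesterol-binding protein of the outer mitochondrial membrane, was at 0.16, -1.19, -0.39 and -0.53 on replicates 1 to 4, with its lowest value on replicate 2 like Hsd17b4. With 4 arrays this likeness is a description only.

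Promoter sequence was looked at because PPARα is known to bind, with its partner RXR, direct repeats of AGGTCA with 1 base between. RefSeq promoter windows on the GRCr8 build were matched for 4 of the 5 genes, without Ech1. In the 250 bases upstream of the start none of the 4 held that exact repeat on either strand, as is the case for all but 17 of 33469 windows (0.0508% with a match). The single hexamer AGGTCA, on either strand, is held by 14.1% of all windows and was found once, upstream of Hsd17b4. The windows of Crot (positive ratio), Phyh (negative ratio) and Hsd17b4 (not called) are shown to set one gene of each kind side by side, with the hexamer in capitals, at chr4:26052874-26053123 (plus strand), chr17:78255646-78255895 (minus strand) and chr18:45515177-45515426 (plus strand).
Crot: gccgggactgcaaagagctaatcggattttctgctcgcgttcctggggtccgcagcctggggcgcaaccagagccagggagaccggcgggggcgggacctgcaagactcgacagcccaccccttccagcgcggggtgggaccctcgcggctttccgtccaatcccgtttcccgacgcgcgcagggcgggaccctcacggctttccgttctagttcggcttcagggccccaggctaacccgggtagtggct
Phyh: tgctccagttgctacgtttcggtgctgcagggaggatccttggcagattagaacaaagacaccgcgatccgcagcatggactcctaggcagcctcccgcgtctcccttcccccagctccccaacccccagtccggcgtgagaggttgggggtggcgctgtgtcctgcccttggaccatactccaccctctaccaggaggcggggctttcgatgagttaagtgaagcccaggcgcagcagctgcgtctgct
Hsd17b4: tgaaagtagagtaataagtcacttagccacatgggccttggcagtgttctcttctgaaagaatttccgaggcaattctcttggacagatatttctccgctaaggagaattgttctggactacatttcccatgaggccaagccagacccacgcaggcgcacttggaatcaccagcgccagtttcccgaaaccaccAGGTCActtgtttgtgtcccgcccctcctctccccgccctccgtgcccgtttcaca
The hexamer begins 56 bases before the start of Hsd17b4. The windows contain 68% (Crot), 62.4% (Phyh) and 52.4% (Hsd17b4) G and C. A match or its lack in these letters says nothing of binding.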

How the data were processed

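Total liver RNA of 4 treated rats was set against 1 control pool on 4 two-colour arrays. Per the file headers the deposited table holds 1 value per spot (7688) and array and names no unit. From the values, the authors' deposited values are log10 ratios: 10 to the power of the value was a whole number of thousandths, within 0.02, for at least 99.987% of spots on each array. The scanner, the background correction and any normalization the authors made: not given in the sources used here. A value repeated on 1171 to 1189 spots of an array was read as a missing ratio, which left 6499 to 6517 measured spots. No intensities were used, so nothing is known of a spot's brightness, and the number of arrays limits the precision.

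Values were converted to log2. An older platform annotation lists 5252 probes, 5169 with 1 symbol, 83 with several and the other 2436 unnamed here; 5140 symbols were updated through Entrez numbers (GRCr8 table). Spots and clones of 1 symbol were averaged, clones with several symbols and unlisted spots stayed rows of their own, and each array was centred on its row median (medians before centring from -0.08 to 0.03). Rows with values on all 4 arrays (4641, of which 2644 have 1 symbol) were tested with limma 3.58.1 in R 4.3.3 (lmFit, eBayes). Each mean was tested against 0, two-sided, Benjamini-Hochberg adjusted, at a threshold of 0.05. The step was also run on simulated rows of independent noise. Those held no slide pattern, so the run says nothing of calls that go with place on the slide. The arrays' ratios correlated over rows at r from 0.47 to 0.76, lowest in the pairs with replicate 2 (0.47 to 0.53). The row length of the 8-block layout was inferred from the values. Spots 62 apart in number (2 rows of a block) correlated at r from 0.069 to 0.34, above lags 61 and 63 on all 4 arrays. Lag 31 exceeded lags 30 and 32 on replicates 1, 2 and 4 but not on 3 (0.30 against 0.31 at lag 30). These lags cannot show that the blocks sit 2 abreast. Apart from the left-right difference in block medians, nothing shown here bears on that setting. The surface was a robust loess (span 0.05, degree 1, 4 iterations). A replicate number is only a name, given in sample order.

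The genes of interest, the lists, the panel and the alternatives were chosen with earlier results of these data known. The genes named are the 5, each called gene of the list, the 2 uncalled with the largest mean per role, the 3 rows nearest to each gene and every measured panel gene; cell type markers named beside them were chosen after their values were seen. Promoter windows are from RefSeq. Protein sequences were planned as a description and not analysed here.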

Additional observations from a re-analysis of the deposited data

Results flagged for a closer look

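Among 45 genes named by the rule, 5 had 1 array far from the other 3, by Dixon's ratio of gap to range (past the 95% critical value for 4 values, which chance passes in about 1 of 20 groups). Crot was at 0.48 on replicate 1 against 0.71 to 0.74 on the others, and Park7, the row nearest to it, at 0.39 on replicate 1 against 0.71 to 0.74. Park7 was picked for its likeness to Crot, so the pair is not 2 separate cases. On replicate 2 Scp2 was at -1.12 against -0.22 to -0.08, Acsl1 at 0.085 against 0.48 to 0.55, and Angptl4 at -0.69 against 0.05 to 0.20.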

How the results depend on the processing

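No paired analysis was possible because the arrays form 1 group against 1 pool. In all settings run, the 5 genes kept the sign of their mean. Ech1 lost its call with the unmoderated statistic (0.67, adjusted p = 0.0618), as did Crot (0.67, adjusted p = 0.0640), Phyh (-1.12, adjusted p = 0.0959) and Abcd3 (-0.53, adjusted p = 0.0874). Crot also lost it with the position surface subtracted (0.28), and Abcd3 with block medians subtracted (-0.35) and with a 1.5-fold minimum (-0.53). Hsd17b4 was called in none. Leaving out 1 array gave means from 0.63 to 0.71 for Ech1, 0.64 to 0.73 for Crot, -0.60 to -0.44 for Abcd3, -1.32 to -0.97 for Phyh and -0.60 to -0.10 for Hsd17b4. With the surface also subtracted, calls were lost by Ech1 without replicates 1 to 4 in turn (0.26, 0.32, 0.35 and 0.34), Crot without replicate 1, 3 or 4 (0.31, 0.32 and 0.32), Abcd3 without replicate 1, 3 or 4 (-0.50, -0.46 and -0.39) and Phyh without replicate 3 (-0.87).

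Over the whole table (634 positive and 708 negative calls) the counts were 142 and 535 with the surface subtracted, 375 and 621 with block medians subtracted, 1153 and 1286 with the repeated value kept, 420 and 465 with rows of 1 symbol only, 1139 and 1192 with array weights, 80 and 369 at 1.5-fold and 6 and 4 with the unmoderated statistic. They ran from 103 to 864 and 320 to 886 with 1 array left out, the lowest without replicate 3 and the highest without replicate 2. With the surface also subtracted they were 13 and 307, 452 and 663, 11 and 184, and 12 and 262 without replicates 1 to 4. The peroxisome list (5 and 4) had 2 and 2 with the surface subtracted, 3 and 2 with block medians subtracted, 8 and 9 with the repeated value kept, 2 and 1 at 1.5-fold, 3 to 7 and 1 to 5 with 1 array left out, and 0 to 4 and 0 to 2 with the surface also subtracted (limma; 3 to 6 and 3 to 5 at an unadjusted p under 0.05). By the unmoderated statistic it had 0 and 0, against 7 and 4 at an unadjusted p under 0.05. With arrays centred only, calls made up 21.7% and 17.4% of its 23 tested genes, against 13.7% and 15.3% of all rows. Less the surface the shares were 8.70% each, against 3.06% and 11.5%. The 5 genes are part of all these counts. Without them the list had 3 and 2 calls among 18 tested genes, and 1 and 0 less the surface. Keeping the repeated value let values read here as missing into the fit. That setting therefore tested 5582 rows in place of 4641, and more genes of the list.

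Among the other named genes these changed sign, and none was called where its sign had turned: Cpt1b with the surface (-0.27) or block medians (-0.16) subtracted, Cpt2 as single spots (-0.00703), Angptl4 with the repeated value kept (0.012) or array weights (0.051), and Hadhb uncentred (-0.012) or with rows of 1 symbol (-0.00394). With 1 array left out Cpt1b ran from -0.091 to 0.29, Cpt2 from -0.00462 to 0.099, Angptl4 from -0.19 to 0.11 and Hadhb from -0.026 to 0.053. With the surface also subtracted, the turned values were Hao2 -0.00238 and Prepl 0.20 without replicate 2, Cpt1b -0.35, -0.071, -0.32 and -0.36 without replicates 1 to 4, Hadha -0.029 without replicate 1, Prdx5 0.00514 without replicate 4, and Pex2 -0.0051, -0.016 and -0.028 without replicate 1, 3 or 4. The causes were not tested.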

Other observations

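Uox, urate oxidase of the peroxisome core, had a value on 2 of the 4 arrays only and so entered no test. It was at -3.26 on replicate 2 and -1.61 on replicate 3 (centred log2 ratio). It was picked out after its values were seen. The 4 other listed peroxisome genes that were spotted without a value on every array were Acsl4, Pxmp2, Acaa1a and Pex26.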
